A study of Mus musculus with 7 samples.

Results

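Long intergenic noncoding RNAs were measured here by the 16251 array probes whose name starts with A_30_P, out of 55681 non-control probes on the array. They were chosen by that prefix alone, without regard to signal. All but 57 of them carry a chromosome interval in place of a gene name, and those 57 carry the names of 12 known noncoding RNAs. After 5 probes with an outlier flag were left out, 16246 remained, on 3555 intervals of mouse build mm9 with a median length of 7328 bp. Probes lay on both strands of 1067 intervals and on 1 strand of the other 2488, which made 4622 interval strands with at most 10 probes each, so neighbouring probes share a transcript region and are not independent.

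Total RNA (250 ng per array, labelled with Cy3) of 7 mouse samples was hybridised, 1 array each. Cardiac mesenchymal progenitors (CMPs) are cells grown out of adult heart tissue. They were of strain C57BL/6 and were cultured on collagen I in DMEM/F12 with 10% FBS and 40 ng/ml bFGF, a basic fibroblast growth factor. Postmortem CMPs (2 arrays, 1 atrial and 1 ventricular) came from tissue held for 24 h at 4 °C, and living CMPs (2 arrays, 1 atrial and 1 ventricular) from living cardiac tissue. The adult heart array held commercial total heart RNA (Clontech) of a strain the labels do not give. The fetal heart arrays held embryonic day 16.5 hearts of strain C57BL/6, fetal heart 1 of wild type and fetal heart 2 of C57BL/6-Tg(Myh6-EGFP)MG2, a line in which the cardiomyocyte promoter Myh6 drives a green fluorescent protein. The labels name the heart RNAs as positive controls. They do not say whether arrays came from separate animals, how many animals went into each, or their sex. The p-values thus measure only the spread between these samples. In the model used, part of that spread is the difference between the 2 fetal arrays, which are of different genotype. The rest is what source and chamber leave over among the 4 CMP arrays. Neither part is a spread between replicates of 1 condition. The study set postmortem against living CMPs, and its title concerns whether progenitors from postmortem tissue retain their character.

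Long intergenic noncoding RNAs are transcripts from between protein-coding genes that do not encode a protein. Known members act in several ways: Xist coats and silences an X chromosome, Neat1 builds nuclear paraspeckles, Malat1 (Neat2) resides in nuclear speckles, and H19 is an imprinted RNA made in fetal tissues and hosts a microRNA. Many are transcribed in only some cell types and at low levels, and many lie close to the genes of developmental transcription factors.

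Values are log2 levels: the log2 of the processed spot signal minus that array's 75th percentile over all non-control probes, so 0 is the 75th percentile. A probe was counted as detected where the scanner program marked its spot as well above background. In bulk RNA, fewer cells of a type and less RNA per cell cannot be told apart. The arrays matched their labels in the marker genes: of 8 cardiomyocyte markers, 8 were detected on each heart array and 1 to 3 on each CMP array, with a log2 of their summed level of 11.54 to 12.74 in the hearts and 0.37 to 4.12 in the CMPs. All 8 mesenchymal stromal markers were detected on all 7 arrays, with a log2 summed level of 10.20 to 10.53 in the CMPs and 7.47 to 8.65 in the hearts. Of 4 erythroid markers, 3 or 4 were detected in the hearts, none on 3 CMP arrays and 1 on the postmortem ventricular array. Every difference between CMPs and heart below is thus also a difference between cultured stromal cells and tissue that holds cardiomyocytes and blood, and the part of each cell type in it was not tested.

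The 60-base probe sequences that carry the largest differences are given first, as the array prints them. They are in lower case, and capitals mark bases shared, over a run of at least 20, with a probe of another name on the array. Each is named by its RNA or by the nearest named gene.
H19, A_30_P01028827, chr7:149761435-149764019, reverse strand: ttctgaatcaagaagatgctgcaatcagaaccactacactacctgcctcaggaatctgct
Xist, A_30_P01023652, chrX:100655711-100678572, reverse strand: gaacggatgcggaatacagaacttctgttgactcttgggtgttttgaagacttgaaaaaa
near Mttp, A_30_P01024709, chr3:137742666-137744470, forward strand: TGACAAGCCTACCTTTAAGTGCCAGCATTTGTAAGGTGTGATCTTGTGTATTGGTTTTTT
near Actc1, A_30_P01029543, chr2:113880070-113887230, forward strand: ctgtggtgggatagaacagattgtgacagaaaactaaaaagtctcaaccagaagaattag
near Trim61, A_30_P01031408, chr8:67552315-67561235, reverse strand: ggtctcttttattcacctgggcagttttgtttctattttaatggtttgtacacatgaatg
near Mtap, A_30_P01032679, chr4:88745770-88774130, reverse strand: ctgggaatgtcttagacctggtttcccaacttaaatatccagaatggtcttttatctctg
near Mtap, A_30_P01024210, chr4:88745770-88774130, reverse strand: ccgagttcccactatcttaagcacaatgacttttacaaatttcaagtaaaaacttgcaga
near Klf14, A_30_P01025122, chr6:31007184-31007725, reverse strand: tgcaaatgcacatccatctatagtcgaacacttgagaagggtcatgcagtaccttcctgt
near Mkln1, A_30_P01019476, chr6:31170350-31287353, forward strand: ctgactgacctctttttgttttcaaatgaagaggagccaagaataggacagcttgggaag
near Adamts15, A_30_P01022893, chr9:30529709-30589042, reverse strand: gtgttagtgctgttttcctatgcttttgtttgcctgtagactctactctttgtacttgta
near Hist1h2ak, A_30_P01023737, chr13:21856097-21859200, reverse strand: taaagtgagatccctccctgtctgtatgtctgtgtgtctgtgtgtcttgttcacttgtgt
The capitals show that the probe near Mttp has the same 60 bases as the array's probe for 1110002E22Rik, so it reads that transcript as well. RefSeq lists 1110002E22Rik as a protein-coding gene.

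Intergenic probes were detected less often than the rest of the array. Between 24.6% of them (adult heart) and 31.1% (postmortem ventricular CMPs) were detected on an array, against 55.4% to 62.1% of the other probes. On no array at all were 8870 of the 16246 probes (54.6%) detected, 2748 (16.9%) were detected on all 7 arrays, and 2129 were detected on exactly 1. Of the other probes, 46.7% were detected on all 7. At the level of intervals, 1635 of 4622 interval strands (35.4%) held a probe detected on all 7 arrays and 1224 (26.5%) held none detected on any. Detection was not uniform within an interval: among the 3394 strands with at least 3 probes, 943 held both a probe detected on all 7 arrays and a probe detected on none. The lowest level at which a spot still counted as well above background ran from -4.61 on fetal heart 1 to -3.41 on adult heart, so the adult array had the least room for weak transcripts.

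Detection went with the base composition of the probe and with distance to genes. Among intergenic probes under 40% GC, 10.6% were detected on all 7 arrays, rising to 14.3% at 40 to 50% GC and 31.9% at 50% GC and over. The other probes ran from 45% to 53.1% over the same classes, so the gap between both kinds of probe was widest at low GC. Of the 16128 intergenic probes with a position, 689 lay within 1 kb of the nearest probe for a named gene, and 29.6% of those were detected on all 7 arrays. That share was 18.5% at 1 to 10 kb, 17% at 10 to 50 kb and 14.5% beyond 50 kb. By chromosome it lay between 12% (chromosome 9) and 23.2% (chromosome 19), and on X it was 13.8%. How far probe chemistry and transcript level each set these shares was not tested.

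A small set of intergenic probes was detected in only the cultures or only the hearts. On all 4 CMP arrays and on no heart array, 142 probes were detected (0.874%, against 0.683% of all probes of the array). On all 3 heart arrays and on no CMP array, 89 were detected (0.548%, against 1.35% of all probes). Heart-restricted detection was therefore less frequent among intergenic probes than over the array. The CMP-restricted share was near that of the array only when undetected probes are counted in. Of probes detected on at least 1 array, 142 of 7376 intergenic and 238 of 28235 other probes were restricted to the CMPs. To the hearts, 89 and 664 of the same totals were restricted. With the scanner program's looser detection flag the counts were 112 for the CMPs and 109 for the hearts. The share over all probes was not counted with that flag. The probes of highest mean level among those detected on all 7 arrays varied little between samples. The probe at chr11:22681800-22707775, nearest B3gnt2, read 8.68 to 8.79 in the 4 CMPs, 7.90 in adult heart and 8.56 and 8.95 in the fetal hearts. The probe at chr17:17481706-17482457, nearest Riok2, read 7.92 to 8.38, 8.80, and 8.42 and 8.71 in the same order. The other 4 lay near Akap11, Tmcc1 and Ppm1a and at chr7:108209996-108216032, and none of their levels fell below 7.30. These values describe each probe across samples, since the signal of a probe depends on its sequence too.

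**Figure D1:**
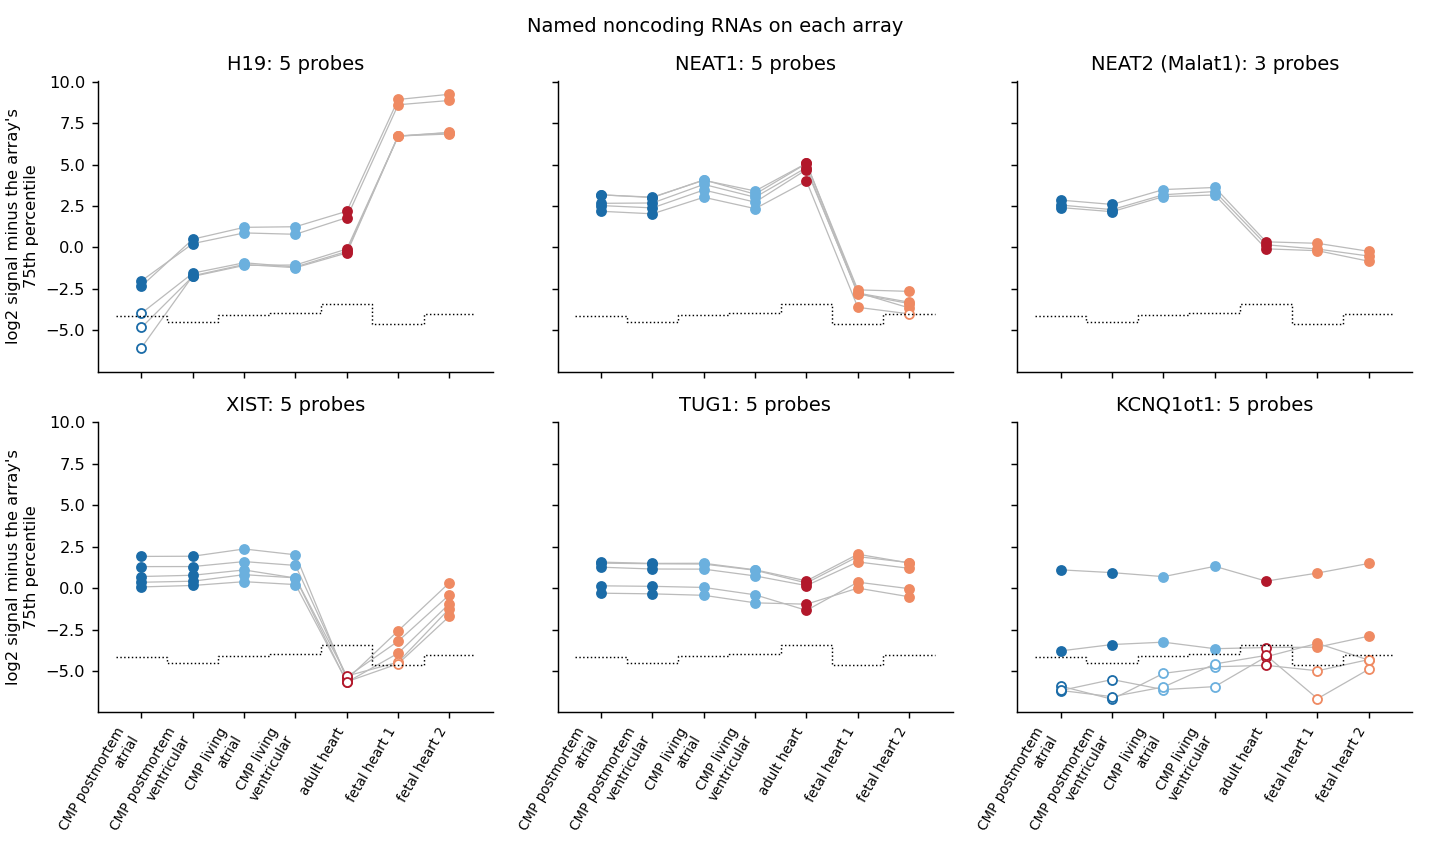
Log2 level (signal minus the array's 75th percentile) of each intergenic probe for 6 named RNAs on the 7 arrays; each grey line joins the values of 1 probe, filled points were well above background, open points were not, and the dotted step is the lowest level that counted as well above background on that array. H19 is high in fetal heart, NEAT1 and NEAT2 are high in CMPs, XIST is high in the 4 CMPs and open in adult heart, and the 5 TUG1 probes are filled on all 7 arrays.

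H19, an imprinted RNA abundant in the fetus, showed the largest drop among the named RNAs. Its probe A_30_P01028827 read -6.05, not well above background, in postmortem atrial CMPs, -1.71 in postmortem ventricular, -1.03 in living atrial and -1.22 in living ventricular CMPs. The same probe read -0.33 in adult heart and 6.72 and 6.84 in the fetal hearts. Both fetal arrays stood far above the other 5, and the postmortem atrial array was the lowest. All 5 H19 probes were lower in CMPs than in fetal heart, by fitted log2 differences of -8.73 to -9.28 with adjusted p from 0.00013 to 0.0006 (limma), and all 5 were lower in adult than in fetal heart. Against adult heart the same probes gave -1.66 to -2.17, of which A_30_P01025068 passed (-1.83 ± 0.58 SE, adjusted p = 0.042); it no longer passed without either fetal array. Another H19 probe of the array, A_55_P1961127, gave -8.10 ± 0.54 against fetal heart.

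NEAT1, the scaffold of paraspeckles, was low in fetal heart and high elsewhere. A_30_P01029720 (chr19:5842306-5845476, reverse strand) read 3.17, 3.03, 4.05 and 3.40 in the 4 CMPs (atrial before ventricular, postmortem before living). It read 5.07 in adult heart and -2.76 and -3.30 in the fetal hearts. The 3 groups did not overlap, with adult heart above the CMPs and the CMPs above fetal heart. All 5 NEAT1 probes were higher in CMPs than in fetal heart (5.96 to 6.44), lower in CMPs than in adult heart (-1.61 to -1.92), and higher in adult than in fetal heart (7.67 to 8.10). Further along the same locus, A_30_P01019037 (chr19:5834117-5835940) was detected in all 4 CMPs and in adult heart and on neither fetal array, and was at least 17.9-fold higher in CMPs than in fetal heart.

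NEAT2, better known as Malat1, an abundant nuclear RNA, separated the cultures from all hearts. A_30_P01019221 (chr19:5795689-5802671, reverse strand) read 2.85, 2.59, 3.49 and 3.62 in the 4 CMPs in the order above, 0.34 in adult heart and 0.25 and -0.24 in the fetal hearts. All 4 CMPs lay above all 3 hearts. The 3 NEAT2 probes gave 3.13 to 3.21 against fetal heart and 2.69 to 2.80 against adult heart, all past the threshold, while adult and fetal heart differed by 0.33 to 0.47 and did not pass. On the opposite strand of the same locus, A_30_P01033068 (chr19:5795690-5797464, forward strand) had another pattern, with -0.19 in adult heart against -3.64 and -2.38 in fetal heart and -2.02 to -1.43 in the CMPs, and it was higher in adult than in fetal heart (2.82 ± 0.58, adjusted p = 0.014).

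XIST, the RNA that silences an X chromosome in female cells, was detected on all 4 CMP arrays and not in adult heart. A_30_P01023652 read 1.92, 1.93, 2.37 and 2.02 in the 4 CMPs, -5.49 in adult heart (not well above background), -2.56 in fetal heart 1 and 0.34 in fetal heart 2. The CMPs were tight and the fetal arrays far apart. The 5 probes were at least 12.4 to 44.4-fold higher in CMPs than in adult heart, and 3.17 to 3.40 higher on the log2 scale than in fetal heart; for A_30_P01023652 that difference was 1.72 without fetal heart 1 and 4.63 without fetal heart 2. Among genes of the Y chromosome, Ddx3y and Eif2s3y ran the other way. Ddx3y read -6.55 to -6.02 on the CMP arrays, below background, and 1.99, 1.19 and 0.35 in adult heart, fetal heart 1 and fetal heart 2. Eif2s3y was detected in all 3 hearts and, at -2.30, on the postmortem ventricular array. Uty was detected on fetal heart 1 alone, at -3.52, and Kdm5d on no array. The labels give no sex, and the sex of the animals and the source of the cells cannot be told apart in the XIST values. All 5 probes of TSIX, the antisense partner of Xist, were detected on no array.

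TUG1, a broadly expressed noncoding RNA, was detected on all 7 arrays by all 5 probes. A_30_P01032690 (chr11:3539796-3547536, reverse strand) read 1.52, 1.48, 1.46 and 1.09 in the 4 CMPs, 0.32 in adult heart and 1.91 and 1.55 in the fetal hearts. Adult heart was lowest. None of the 5 passed between CMPs and fetal heart (-0.37 to -0.19), whereas another TUG1 probe of the array, A_52_P599162, was higher in CMPs (0.67 ± 0.17, adjusted p = 0.023). Of the 5, 4 were higher in CMPs than in adult heart, with A_30_P01032690 at 1.07 ± 0.25 (adjusted p = 0.016). The call of A_30_P01022467 and A_30_P01033104 in that comparison did not pass under quantile normalization (0.86 and 0.89) or other centring (0.70 and 0.75). A longer interval at the same locus, chr11:3538125-3554450, held a fainter probe, A_30_P01021715, that read -6.36 and -4.75 in atrial CMPs and -4.25 and -1.87 in ventricular CMPs, and this did not pass (2.49 ± 0.45, adjusted p = 0.214).

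The other named RNAs gave few calls. HOTAIR, a Hox cluster RNA, was detected on all 7 arrays by 1 of its 5 probes, A_30_P01022414, at -2.65 to -2.16 with no difference past the threshold. A second HOTAIR probe, A_30_P01030952, read -2.26 in adult heart and was below background in all 4 CMPs, at least 3.74-fold lower there (adjusted p = 0.029); it was detected in fetal heart 2 (-2.89) and not in fetal heart 1. KCNQ1ot1, the imprinted antisense RNA of Kcnq1, read 0.43 to 1.32 in CMPs and adult heart with A_30_P01026203 and did not pass in any comparison, while 2 of its 5 probes were detected nowhere. BRN1-A was detected on fetal heart 1 alone, with all 4 probes, at levels of -2.75 to -1.38. All 5 lincP21 probes were detected on no array. NRON had 2 tested probes of 5 and none was called between CMPs and heart. PINC had 1 called probe, A_30_P01018411, which read -1.61 in adult heart and lay below background on the other 6 arrays, at least 5.87-fold below adult heart in CMPs.

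At the imprinted Airn locus on chromosome 17 the postmortem atrial array stood apart. The 5 forward-strand probes of the interval whose nearest named gene is Airn were all lowest on that array: A_30_P01018135 read -2.60 there, -0.16 in postmortem ventricular, -1.15 in living atrial and -0.85 in living ventricular CMPs. In adult heart it read -0.03, and -0.38 and 0.46 in the fetal hearts. None of the 5 passed in any comparison. The array's own probes for Airn (A_55_P2122633) and Kcnq1ot1 (A_55_P2408415) were lowest on the same array, at -0.60 and -4.39, as was H19. The intergenic KCNQ1ot1 probe A_30_P01026203 was not: it read 1.11 there and 0.70 to 1.32 in the other CMPs. Nor were the array's probes for Meg3, Mirg and Peg13, which read 1.70, 1.39 and 3.77 there. In the other CMPs they read 1.12 to 1.79, -0.44 to 0.26 and 3.11 to 3.24. These RNAs were chosen for mention after their values were seen.

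Between postmortem and living CMPs a single intergenic probe passed the test. With 2 residual degrees of freedom, none of 200 simulated log2 changes of 1 or of 2 was called. Few calls therefore do not show that the cells are alike. Of 4243 probes tested (detected throughout 1 side of the comparison or both), 1 was lower and none higher in postmortem CMPs at an adjusted p under 0.05 (0.0236%, against 0.0955% of all 26179 probes tested, 0.084% lower and 0.0115% higher), and 367 had an unadjusted p under 0.05 in limma. The called probe, A_30_P01023737, lies on chr13:21856097-21859200 in a cluster of histone genes, 12.7 kb from Hist1h2ak, and the RefSeq table (GRCm38) lists the histone gene H2bc15 and the noncoding Gm11274 between its neighbours on the array. It read 5.85 and 5.91 in postmortem atrial and ventricular CMPs and 8.31 and 8.62 in living atrial and ventricular CMPs. In adult heart it read 5.63, and 4.48 and 4.59 in the fetal hearts. Living CMPs were above all other samples, with pair differences of -2.47 (atrial) and -2.71 (ventricular), postmortem minus living (-2.59 ± 0.18 in the fit, adjusted p = 0.031). The nearest gene's probe, Hist1h2ak, differed by 0.34 ± 0.25. The call was lost without a variance trend, without the chamber term, in the 4 CMP arrays alone and without either fetal array, each time with the same difference of -2.59.

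**Figure D2:**
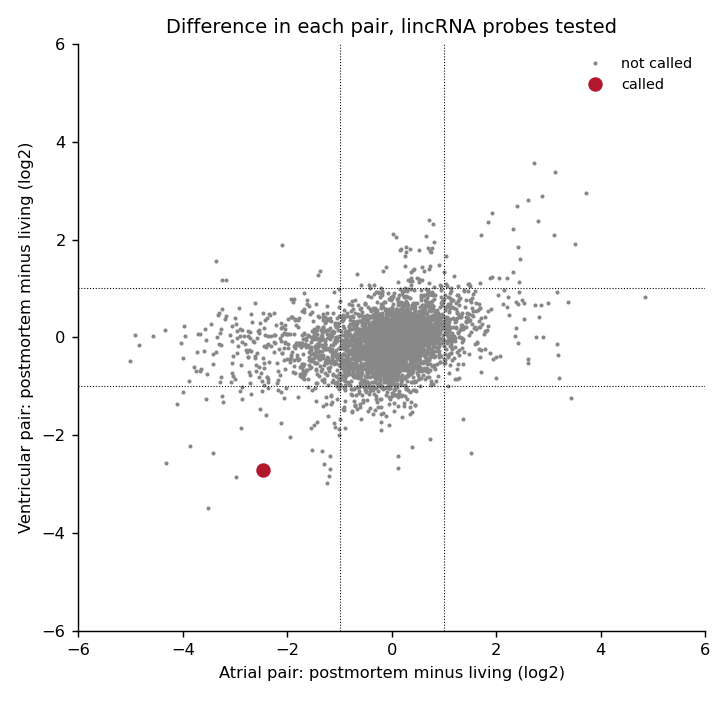
Log2 difference postmortem minus living for the 4243 tested intergenic probes, with the atrial pair of arrays on the horizontal and the ventricular pair on the vertical axis; each dot is a probe and dotted lines mark a 2-fold difference. The cloud is wider along the atrial axis, with 767 probes at least 2-fold apart against 272 in the ventricular pair, and the called probe lies at -2.47 and -2.71.

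The atrial and the ventricular pair were not equally wide. At least 2-fold differences between postmortem and living CMPs were found at 767 tested probes in the atrial pair and 272 in the ventricular pair. Both pairs moved at least 2-fold the same way at 32 probes higher and 56 lower, and in opposite ways at 9; over all probes of the array, 1.27% were higher and 1.62% lower in both pairs. The postmortem atrial array was at least 2-fold from each of the other CMP arrays at 23.9% to 27.8% of the 7376 intergenic probes detected on at least 1 array, against 13.7% to 14.6% among the other 3. The array's other probes had the same pattern, with 18.2% to 21.2% against 9.33% to 10.4%. Leaving out an array changed the count of calls from 1 to 62 (without postmortem atrial), 344 (without postmortem ventricular), 123 (without living atrial) and 321 (without living ventricular). Over all probes the shares called in those fits were 1.79%, 8.24%, 2.44% and 7.88%. Those 4 fits take their spread from the fetal pair alone, with 1 residual degree of freedom.

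Named by size in both pairs, the probes that moved the same way did not pass the test, and their values are given as measured. The reverse-strand probe A_30_P01024207 at chr17:27706143-27706808, 5.89 kb from Hmga1, a chromatin protein gene, read -3.03 and -2.65 in postmortem CMPs and was not detected in living CMPs, at least 2.26-fold lower there (adjusted p = 0.144). Near Fzd7, a Wnt receptor gene, A_30_P01017857 read -2.23 and -2.97 in postmortem CMPs and was not detected in living CMPs, at least 2.66-fold lower there (adjusted p = 0.144). In the other direction, A_30_P01024045 at chr15:74474704-74474770, nearest Arc, read -2.62 and -1.83 in living CMPs and was not detected in postmortem CMPs, at least 4.27-fold lower there (adjusted p = 0.086). It read -0.76 in adult heart. Near Shq1, A_30_P01022067 differed the same way by at least 3.51-fold (adjusted p = 0.195), and near Rnf19b, A_30_P01033475 by at least 3.26-fold (adjusted p = 0.225).

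Ventricular and atrial CMPs did not differ at any intergenic probe past the threshold. Of 4239 probes tested none was called by limma, against 0.00768% of all probes, and 352 had an unadjusted p under 0.05. At least 2-fold in both the postmortem and the living pair, 88 probes were higher and 36 lower in ventricular CMPs, with 6 opposite; over the whole array 1.45% were higher and 1.24% lower in both pairs. As in the other comparison among CMPs, the count rose when 1 array was left out, to 71 (without postmortem atrial), 96 (without postmortem ventricular), 412 (without living atrial) and 336 (without living ventricular). Over all probes those fits called 2.02%, 2.17%, 8.53% and 7.26%.

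A block near Ifi204, an interferon-inducible gene of chromosome 1, held several of the largest chamber values. A_30_P01019537 (chr1:175653557-175671940, reverse strand) read -2.18 and -2.19 in atrial and 0.73 and -0.09 in ventricular CMPs, postmortem before living, with 1.70 in adult heart and -1.85 and -2.42 in fetal heart. Both ventricular arrays were above both atrial arrays, and the difference did not pass (2.51 ± 0.35, adjusted p = 0.143). A neighbouring probe, A_30_P01029545 (chr1:175660642-175671878), was at least 2.48-fold higher in ventricular CMPs (adjusted p = 0.195). The probe for Ifi204 itself gave 1.83 ± 0.31 (adjusted p = 0.195). Lower in ventricular CMPs, A_30_P01021453 at chr16:4867322-4874772, nearest Fam100a, read 5.08 and 2.75 in atrial and 1.95 and -0.27 in ventricular CMPs and -3.89 to -2.13 in the hearts (-3.08 ± 0.25, adjusted p = 0.115). A_30_P01028789 on chromosome 4, nearest Zfp600 at 497 kb, was detected in the atrial CMPs alone, at -2.48 and -2.07, which put the ventricular CMPs lower by at least 3.91-fold (adjusted p = 0.125).

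CMPs and fetal heart differed at 1413 of 4196 tested intergenic probes (33.7%), 857 higher and 556 lower in CMPs. Over all 27528 probes tested 47.8% were called, 23.1% higher and 24.7% lower, so intergenic probes were called less often and leaned towards CMPs (20.4% higher, 13.3% lower). Their median difference was 0.15 against -0.04 for the other probes. The lean rested on fetal heart 1 and on the scaling: without that array 562 were higher and 758 lower, and with arrays centred on the median of probes detected everywhere, which shifts the median of all probes to -0.16, 693 were higher and 661 lower. Among probes detected on all 7 arrays, 28.1% of 2748 intergenic and 46.7% of 18400 other probes were called.

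**Figure D3:**
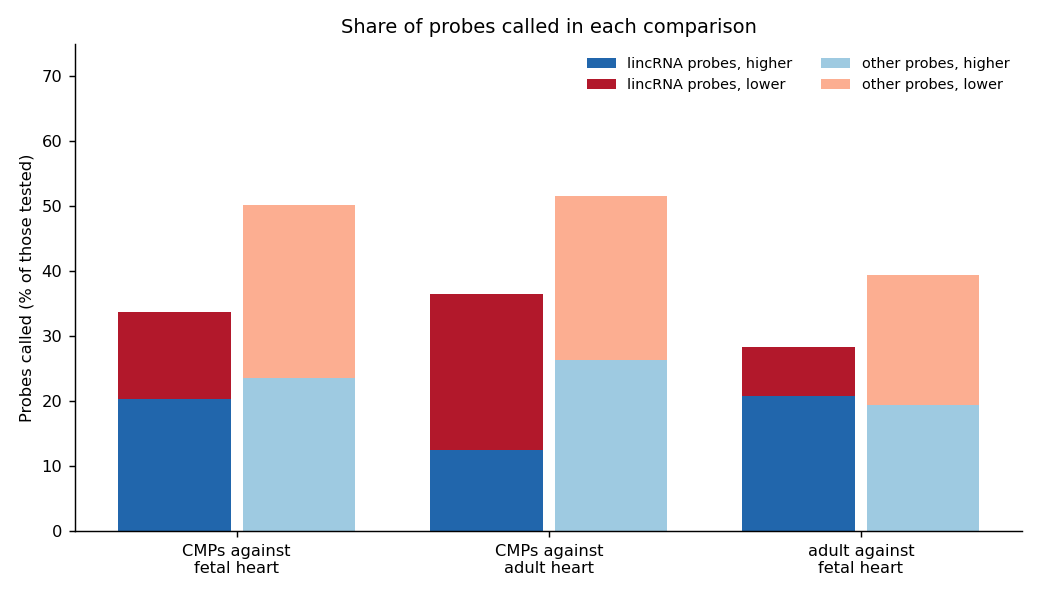
Share of tested probes called at an adjusted p under 0.05 (vertical axis, percent) in 3 comparisons, stacked as higher and lower in the group named before "against", for intergenic (lincRNA) probes and for the other probes. Intergenic probes are called less often in each comparison (33.7% against 50.3%, 36.5% against 51.7% and 28.4% against 39.4%), and in adult against fetal heart most of their calls are higher.

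The intergenic probes lowest in CMPs against fetal heart lay near genes of several kinds. A_30_P01024709 is near Mttp and identical to the probe for 1110002E22Rik, which the RefSeq table lists as protein-coding. It read -6.74 to -6.22 in the 4 CMPs, below background, with 4.29 in adult heart and 2.43 and 3.43 in the fetal hearts. It was at least 137-fold lower in CMPs than in fetal heart (adjusted p = 7.37e-05) and at least 352-fold lower than in adult heart (adjusted p = 0.000186). A second, longer interval over the same place, chr3:137736327-137752677, had 5 of 5 probes lower. Its probe A_30_P01032042 also shares bases with the 1110002E22Rik probe. The gene Mttp itself, a lipid transfer protein, was not lower: its probe was higher in CMPs than in fetal heart by 0.78 ± 0.25.

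A_30_P01031408 (near Trim61) was detected in fetal heart alone. It read 2.26 and 2.73 in the fetal hearts and -6.44 to -4.81 in the CMPs and adult heart, below background on those 5 arrays. It was at least 101-fold lower in CMPs and at least 59.9-fold lower in adult heart. The RefSeq table lists Apela, which encodes a peptide hormone of the apelin receptor, and Smim31 between Trim61 and March1. A_30_P01020369 (chr2:94082835-94101939, nearest Ttc17) was likewise detected in the fetal hearts, at -0.53 and 0.79, and was at least 19.6-fold lower in CMPs; Mir670hg, Mir129-2 and Mir670 lie between its neighbours on the array.

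A_30_P01029543 lies 14 kb from Actc1, the cardiac alpha-actin gene. It read -6.59 to -6.07 in the CMPs, below background, 4.02 in adult heart and 1.35 and 2.40 in the fetal hearts. It was at least 65.9-fold lower in CMPs than in fetal heart and at least 291-fold lower than in adult heart. All 3 probes of this interval moved the same way in both comparisons, and the log2 difference of Actc1 itself between CMPs and fetal heart was -16.02 ± 0.25.

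The probes highest in CMPs fell into blocks with several called probes. Between Ifne and Mtap on chromosome 4, where the RefSeq table lists Mir31 and the noncoding Wincr1, A_30_P01032679 read 0.72, 0.39, 0.05 and 0.44 in the 4 CMPs and was below background in all 3 hearts (-6.79 to -5.59). It was at least 26.5-fold higher in CMPs than in fetal heart (adjusted p = 0.00021), and all 3 probes of the strand were called. A_30_P01024210 of the same interval was at least 21.8-fold higher than in adult heart. The probe for Mtap, an enzyme of methionine salvage 80.2 kb away, differed by 0.30 ± 0.20 from fetal heart and did not pass.

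Between Klf14 and Mkln1 on chromosome 6, which holds Mir29a, Mir29b-1 and the noncoding Lncpint in the RefSeq table, 4 named probes on 4 intervals shared low fetal values. A_30_P01025122 read -0.31, 0.18, 0.34 and 0.29 in the CMPs and was at least 21.9-fold higher than in fetal heart. A_30_P01019476 read 0.20 to 0.87 in the CMPs, 2.34 in adult heart and -6.50 and -5.25 in fetal heart, at least 28.6-fold higher in CMPs and 101-fold higher in adult than in fetal heart. A_30_P01022038 (chr6:31233512-31241062) was at least 224-fold higher in adult than in fetal heart, from 3.64 in the adult to -4.50 and -3.82. A_30_P01029853 (chr6:31078802-31079644) read -0.98 in postmortem atrial CMPs and 1.12 to 1.52 in the other 3 and was at least 34.4-fold higher than in fetal heart. Klf14, the flanking transcription factor gene, was lower in CMPs than in fetal heart (-5.34 ± 0.39), opposite to these probes.

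The last of the leading probes, A_30_P01022549 (chr1:175705225-175717250, nearest Ifi204), was at least 20.1-fold higher in CMPs than in fetal heart, with all 5 probes of the strand called and Ifi204 itself higher by 3.79 ± 0.27. Whole intervals also moved as units. Near Bnip1 (chr17:26911397-26917047, forward strand) all 10 probes were higher in CMPs than in fetal heart, by 2.36 to 2.86, and near Tigit (chr16:43623581-43642715) all 10 by 2.72 to 3.68. Near Usp46 (chr5:74487385-74497428) 8 of 9 tested probes were lower, by -2.04 to -1.38. In all, 178 strands held at least 3 called probes.

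CMPs and adult heart differed at 1660 of 4546 tested intergenic probes (36.5%, against 49.2% of all 27950 probes), 572 higher and 1088 lower in CMPs. Over the whole array the directions were even (24.1% higher, 25.1% lower), and the median difference was -0.32 for intergenic and 0.05 for the other probes. With quantile normalization the split was 737 higher to 936 lower. Adult heart was 1 array, taken to vary like the others, so its own spread is unknown. The lean was found where probes were faint: below a mean level of -4, 515 of 695 tested intergenic probes were lower in CMPs, and above 0, 117 were lower and 187 higher of 820. The other probes had the same pattern, with 1212 lower and 38 higher of 1440 below -4, and 2568 lower and 4379 higher above 0. A probe that faint could be tested only because 1 side detected it, so it had to differ to enter.

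The leading probes against adult heart included several that were bright in adult heart alone. A_30_P01023596 (chr19:56815544-56821403, 16.4 kb from Adrb1, the cardiac beta-adrenergic receptor gene) read 1.98 in adult heart and -6.61 to -4.53 on the other 6 arrays, and was at least 70.8-fold lower in CMPs and at least 78.9-fold lower in fetal heart. A_30_P01022893, between Snx19 and Adamts15, read 2.37 in adult heart and -6.74 to -3.69 elsewhere, at least 103-fold higher in adult than in fetal heart. A_30_P01020448 (chr2:77152807-77155092, nearest Zfp385b) read 1.25 in adult heart and -6.69 to -5.88 elsewhere, at least 42.6-fold lower in CMPs. All 3 rest on the same single adult array.

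Higher in CMPs than in adult heart, beside XIST, were the following probes. A_30_P01020003 (chr14:77511189-77522852, nearest Ccdc122) read 0.09 to 1.07 in the CMPs, -5.40 in adult heart and -2.17 and -2.47 in fetal heart, and was at least 17-fold higher than in adult heart; Ccdc122 itself was higher by 4.62 ± 0.45. A_30_P01031943 (chr17:22420025-22457650, nearest Zfp944) read -0.50 to -0.26 in CMPs and was not detected in adult heart, at least 8.36-fold higher. A_30_P01030982, in a second zinc finger cluster at chr17:22013350-22095775, was at least 7.83-fold higher. A_30_P01027466 (chr4:35106125-35127700, nearest Ifnk, with C9orf72 between its neighbours) was at least 9.1-fold higher than in adult heart.

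Adult and fetal heart differed at 1329 of 4684 tested intergenic probes (28.4%, against 37.6% of all 28882 probes). Of these, 973 were higher and 356 lower in adult heart, while the whole array split 19.7% higher and 17.9% lower. The median difference was 0.50 for intergenic and 0.02 for other probes, and among probes detected on all 7 arrays 0.40 and -0.01. Without fetal heart 1 the split was 663 higher to 379 lower. This comparison too has a single adult array, which also had the highest detection limit. The median difference of intergenic probes was 2.48 below a mean level of -4 and 0.18 above 0. For the other probes it was 1.59 and -0.14. So faint a probe could be tested only because 1 side detected it, and on the adult side a single array was enough.

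Beside H19 and the probes near Trim61 and Ttc17, 3 probes were named as lower in adult than in fetal heart. A_30_P01018593 (chr9:14460976-14488051, forward strand, nearest Piwil4) read 2.54, 2.84, 1.92 and 2.51 in the 4 CMPs, -2.19 in adult heart and 3.98 and 4.19 in the fetal hearts. Adult heart lay below all other samples, and all 5 probes of the strand were lower in adult than in fetal heart (-6.27 to -5.71). A_30_P01033054 (chr5:35893909-35899497, nearest Acox3) read 0.45 to 1.66 in CMPs and 2.55 and 2.58 in fetal heart, and was not detected in adult heart, at least 62.9-fold lower than in fetal heart. A_30_P01027665 (chrX:50407969-50410370, nearest Plac1, a placental gene) read -3.96 to -3.03 in CMPs and 1.23 and 1.54 in fetal heart, and was at least 27.8-fold lower in adult heart. Mir450b, Mir542 and Mir351 lie among the genes between its neighbours, and Plac1 itself was lower (-5.66 ± 0.54).

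**Figure D4:**
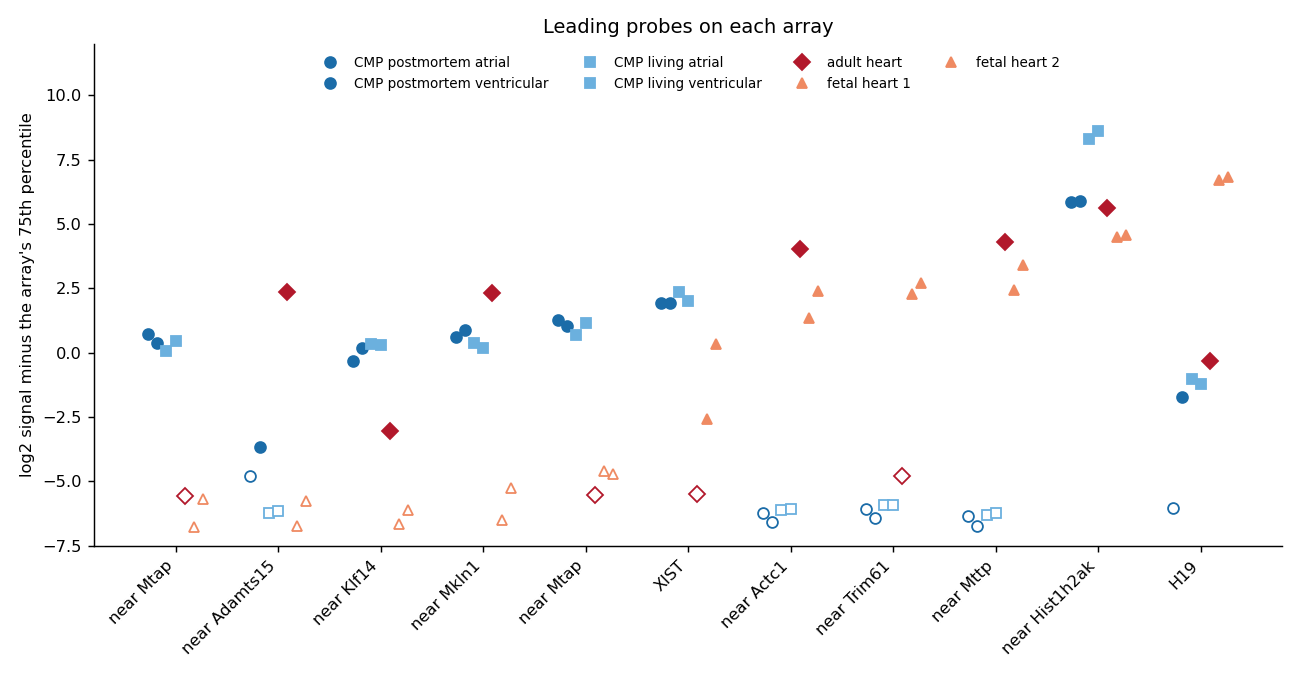
Log2 level of the 11 probes whose sequences are printed, on each of the 7 arrays, labelled by RNA or nearest gene; circles and squares are postmortem and living CMPs, diamonds adult heart, triangles fetal heart, and open symbols were not well above background. The probes near Mttp and Actc1 are filled in the 3 hearts and open in all CMPs, the 2 near Mtap are filled in CMPs and open in the hearts, and the probe near Trim61 is filled in fetal heart alone.

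Beside the named RNAs, probes within 50 kb of genes on 4 lists were counted. Near developmental transcription factors, 140 probes lay by 19 genes and few were detected: of 29 tested against fetal heart, 5 were higher and 5 lower in CMPs (34.5% called, against 47.8% of all probes and 33.7% of all intergenic probes). Near Irx5, a transcription factor of ventricular patterning, A_30_P01027299 (chr8:94849929-94870274) read -3.71 to -1.11 in CMPs, -2.55 in adult heart and 0.08 and 0.81 in fetal heart. It was lower in CMPs (-3.15 ± 0.38, adjusted p = 0.0015), as was Irx5 itself (-3.74 ± 0.59). Near Hoxb9, A_30_P01019010 (chr11:96111499-96126224) read 3.31 to 5.23 in CMPs, 1.33 in adult heart and 3.30 and 3.00 in fetal heart, higher in CMPs than in adult heart by 2.90 ± 0.21.

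Around Nkx2-5, the core cardiac transcription factor gene, called intergenic probes went in both directions. A_30_P01020211 (chr17:26997231-27023120, reverse strand) read -2.80 to -1.93 in CMPs and was below background in all 3 hearts, at least 3.66-fold higher than in fetal heart, whereas Nkx2-5 was lower in CMPs (-6.43 ± 0.63). A_30_P01032380 of the same strand was detected in 3 CMPs (-2.91 to -2.62) and in adult heart (-1.96) and not in postmortem atrial CMPs or fetal heart. On the forward strand, A_30_P01027312 (chr17:27012442-27024356) was lower in CMPs than in adult heart (-2.16 ± 0.55, adjusted p = 0.021), the direction of Nkx2-5 itself (-6.20 ± 0.82). Near Foxf1a, 2 probes were lower in CMPs than in adult heart while Foxf1a was higher (4.16 ± 1.06); of them A_30_P01033611 also did not pass without postmortem atrial or without living ventricular CMPs (-1.60 both times).

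Near matrix and growth factor genes, 9 probes could be tested against fetal heart, and 3 were higher and 4 lower in CMPs, on 1 interval in each direction (77.8% called, against 47.8% of all probes and 33.7% of all intergenic probes). Downstream of Cyr61, a matricellular protein gene, A_30_P01028865 (chr3:145313275-145315057) read -2.39 to -0.75 in CMPs and was not well above background in fetal heart on the 2 arrays, at least 8.05-fold higher, like Cyr61 itself (4.04 ± 0.16). Near Ctgf, of the same protein family, A_30_P01018924 (chr10:24269165-24276690) was below background in all 4 CMPs (at most -4.66) and read -0.27 in adult heart, at least 14.9-fold lower in CMPs, while Ctgf was higher in CMPs (2.45 ± 0.37). The probe lies 48.9 kb from Ctgf. Near cardiac muscle genes, 4 of 8 tested probes were lower in CMPs than in adult heart and none higher, on 2 intervals near Actc1 and Acta1 (50% called, against 49.2% of all probes). Against fetal heart 3 of 7 were lower and 1 higher, the latter A_30_P01029526 near Xirp2 (1.70 ± 0.46, adjusted p = 0.026), which did not pass without fetal heart 1 (1.24).

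Near genes on the list of named long noncoding RNAs, 268 probes lay by 18 genes. Against fetal heart 33 of 138 tested were higher and 16 lower in CMPs, on 12 and 7 intervals (35.5% called, against 47.8% of all probes and 33.7% of all intergenic probes), and against adult heart 23 and 26 of 131 (37.4%, against 49.2% and 36.5%). Of the 53 names on the list, 29 had a probe of their own on the array and 22 were tested. Of these 22, each read by 1 probe, 9 were higher and 5 lower in CMPs than in fetal heart. Over all probes 47.8% were called there. Than in adult heart, 8 were higher and 3 lower, where 49.2% of all probes were called. These counts were not tested against those shares. The list also holds the protein-coding genes Oip5 and Ptprd. Both are counted among those lower than in fetal heart (-1.99 and -1.48) and higher than in adult heart (2.35 and 1.29). Pvt1, a noncoding neighbour of Myc, was higher in CMPs by 3.09 ± 0.46 and 4.12 ± 0.59 than in fetal and adult heart. The intergenic A_30_P01031483 (chr15:62046023-62082530, forward strand) read -0.84 to 0.00 in CMPs, -4.04 in adult heart and -2.96 and -4.82 in fetal heart, higher by 3.38 ± 0.56 than in fetal heart. On the reverse strand at Pvt1, A_30_P01019658 went the other way against adult heart (-3.22 ± 0.50).

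Mir17hg, the host of the miR-17 to miR-92 cluster, was lower in CMPs at its own probe (-3.30 ± 0.69 against fetal heart). The intergenic A_30_P01029746 (chr14:115443612-115445950) has the same 60 bases as that probe, so it is not a separate reading. It was at least 5.23-fold lower in CMPs than in fetal heart and at least 6.33-fold lower than in adult heart. It read -1.50 in adult heart and -1.60 and -1.95 in fetal heart. At Gas5, a small nucleolar RNA host, the strands were opposite: A_30_P01026422 on the forward strand of chr1:162965309-162970704 was at least 1.53-fold higher in CMPs than in adult heart, and A_30_P01025128 on the reverse strand was lower (-2.41 ± 0.48). Gas5 itself was higher by 3.34 ± 0.21. The reverse strand near Oip5 (chr2:119412770-119435110), where the RefSeq table lists Oip5os1, had 7 of 8 tested probes lower in CMPs than in adult heart (-3.84 to -1.91 among the called ones), and Oip5 was higher (2.35 ± 0.37).

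Where the nearest named gene was called too, called intergenic probes mostly shared its direction. In CMPs against fetal heart, 850 called probes had a named gene within 50 kb that was tested. For 590 of them the gene was called, 73.7% (435) in the same direction. Against adult heart the gene was called for 571 of 915 such probes, 66.2% (378) in the same direction. For adult against fetal heart it was called for 363 of 751, 70.5% (256) in the same direction. Probes beside an uncalled gene are left out of these shares. On the same strand within 1 kb, 100% (89 of 89), 95.5% (85 of 89) and 96.8% (61 of 63) had the same direction in the 3 comparisons, and beyond 50 kb on the same strand 50.4%, 64.7% and 59.4%. The decline was not steady: against adult heart the share was 51.4% at 10 to 50 kb. On the opposite strand within 1 kb it was 81.8%, 73.3% and 66.7%, of 11, 15 and 6 pairs. Several probes share 1 gene, as the 850 probes lay near 333 genes, so these shares are descriptions. Some close pairs also read the same RNA, so their agreement was built in. The NEAT1 probe A_30_P01029720 lies 0.031 kb from the array's Neat1 probe, and the H19 probe A_30_P01028827 lies 0.245 kb from an H19 probe. Such pairs were not separated from pairs of different transcripts.

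**Figure D5:**
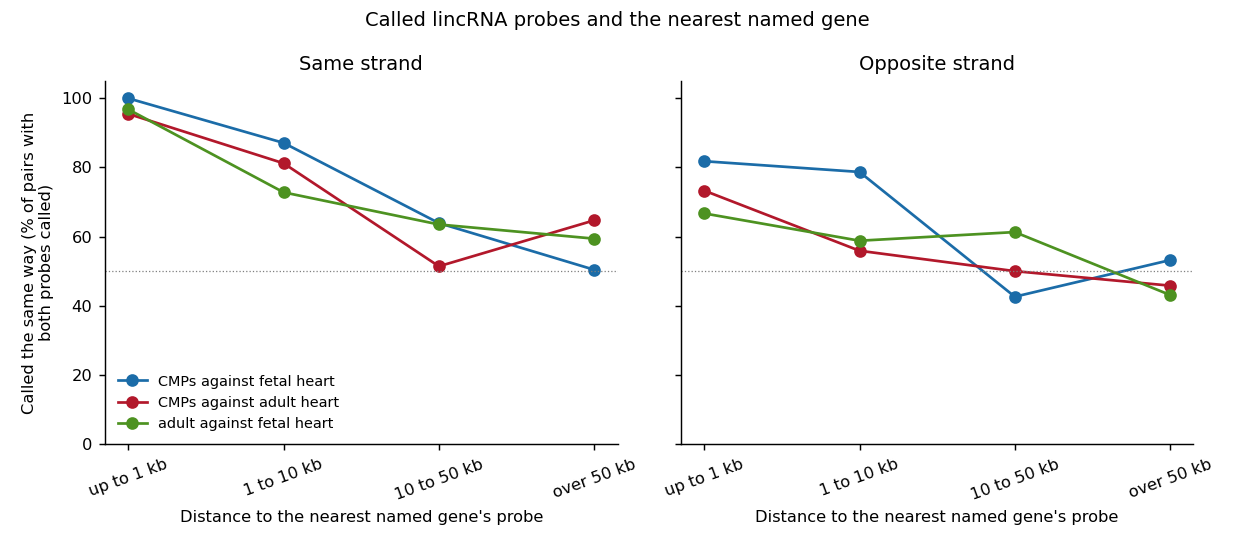
Percent of pairs with the same direction (vertical axis) in 3 comparisons, among called intergenic probes whose nearest named gene was also called. The horizontal axis is the distance to that gene's closest probe, and panels are by strand. The gene's call and direction are those of its probe of highest mean level. The dotted line is 50%. On the same strand the lines start at 95.5% to 100% within 1 kb and end at 50.4% to 64.7% beyond 50 kb, and on the opposite strand they start at 66.7% to 81.8%.

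Few interval strands held calls in both directions, but a strand with a single called probe cannot, and such strands are counted here too. Of 809 strands with a called probe in CMPs against fetal heart, 13 held calls in both directions, as did 28 of 1077 against adult heart and 14 of 872 for adult against fetal heart. Of the 310 strands with at least 3 tested probes and a call in CMPs against fetal heart, 139 had every tested probe called 1 way and 237 had every probe of 1 sign. These counts were 114 and 234 of 357 against adult heart, and 91 and 222 of 310 for adult against fetal heart. Detection and direction could differ between the 2 strands of an interval. Of the 1067 intervals with probes on both strands, 352 had a probe detected on at least 4 arrays on each strand, 463 on 1 strand and 252 on neither. Where both strands held calls, they had the same direction in 48 intervals and opposite directions in 10 for CMPs against fetal heart, 59 and 20 against adult heart, and 46 and 10 for adult against fetal heart.

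A few intergenic probes reach into microRNA precursors. Of 16246 probes, 11 on 5 interval strands share at least 20 bases with 1 of 1005 mouse hairpins of RefSeq. The pair shown here lies in chr15:85412264-85549139, forward strand, nearest Ppara, and capitals mark the whole mature microRNA inside the probe.
let-7c-5p, A_30_P01031395: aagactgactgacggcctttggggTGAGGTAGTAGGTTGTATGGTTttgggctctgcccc
let-7a-1-3p, A_30_P01033484: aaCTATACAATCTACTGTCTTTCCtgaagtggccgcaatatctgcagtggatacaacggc
A labelled long transcript is read by such a probe, so the values are those of the precursor region. A_30_P01033484 shares its bases with the hairpins Mirlet7a-1 and Mirlet7c-2, so the mature name on its line does not give the locus. A_30_P01031395 read -3.23, -3.43, -3.08 and -3.04 in the 4 CMPs, -4.56 in adult heart and -6.01 and -5.12 in fetal heart. It was detected in the CMPs alone and was higher than in fetal heart (2.37 ± 0.41, adjusted p = 0.0055), while the difference from adult heart did not pass (1.37 ± 0.54). A_30_P01033484 was detected in postmortem atrial CMPs alone, at -3.76. The 5 probes over Mir363 and Mir92-2 (chrX:50087925-50101700) were detected on no array, and the probe over Mir410, in Mirg, on 4 arrays.

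Probes printed more than once under different names give a measure of error within an array. Of the intergenic probes, 79 have the same 60 bases as another probe. The largest difference on any array between such twins, over the 28 probes detected on all 7 arrays, had a median of 0.21 and a maximum of 0.73. Fainter twins could lie further apart. The difference reached 1.26 for A_30_P01029746 (detected on 3 arrays), 2.99 for A_30_P01028766 (on 4) and 4.49 for A_30_P01028366 (on none).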

How the data were processed

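RNA of 7 samples was measured on 1-colour Agilent mouse arrays with positions on build mm9. The authors deposited 1 scanner file per array with spot intensity, background-subtracted by Agilent Feature Extraction (10.7.3.1 per the file headers, 9.5.3 per the submitters' processing notes), and a series table of log2 values; the deposited log2 values equalled log2 of the processed intensity minus a constant per array within 0.001 for all probes. Levels were computed as log2 of the processed signal minus the array's 75th percentile over non-control probes. Spots of a probe were averaged, and 11 probes with an outlier flag were left out. The number of arrays limits the precision.

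Differences were fitted over the whole table with limma 3.58.1 in R 4.3.3 (lmFit, eBayes with a variance trend), with a term for each source and for the chamber, leaving 2 residual degrees of freedom, on probes detected on each array of 1 side of the comparison or both. Tests were two-sided with Benjamini-Hochberg adjustment at 0.05, and ± is the standard error. Where no array of a side was well above background, the fold is a bound ("at least") against the higher of the lowest signal well above background and the probe's own signal. Tables were handled with Python 3.11.15. The fit was tested on simulated data with 200 changed probes per comparison. It found 64.5% to 84% of log2 changes of 4 and none of the changes of 1 or 2. Far more probes than that were called between CMPs and heart in the data, so these shares do not carry over to those comparisons.

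The probes and lists were chosen with earlier results of these data known. Probes named are the 6 largest called differences per direction with groups that do not overlap, 1 per interval; the 6 per direction with the largest smaller difference of at least 2-fold in both CMP pairs; the 6 of highest mean level; up to 6 called probes per list and direction within 50 kb of a listed gene; and the 4 intervals with most called probes. The nearest named gene is that of the closest other probe by deposited position. Its call and direction are those of its probe of highest mean level, which can be a different probe. In the RefSeq table, whose GRCm38 coordinates were not used, 1812 of these genes were found. The alternatives were other background correction, normalization, centring, filters, the deposited table, no trend, no chamber term, 1 probe per gene name, CMP arrays alone and leaving out each array.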

Additional observations from a re-analysis of the deposited data

Results flagged for a closer look

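Of 109 sets of 4 CMP values examined, 9 held an array whose gap to the nearest other, divided by the range, was above Dixon's critical value; chance passes about 1 group in 20. The postmortem atrial array was the lowest in 4 of them, with a ratio of 0.864 for H19 (A_30_P01028827, -6.05 against -1.71 to -1.03), 0.842 near Klf14 (A_30_P01029853, -0.98 against 1.12 to 1.52), 0.889 near Nfib (A_30_P01030421, -3.86 against -2.49 to -2.31) and 0.919 near Nkx2-5 (A_30_P01032380, -6.19 against -2.91 to -2.62).

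The postmortem ventricular array was the highest in 3, with 0.963 near Airn (A_30_P01021611, -3.37 against -4.59 to -4.54), 0.843 near Foxf1a (A_30_P01033611, -3.68 against -4.40 to -4.28) and 0.894 for the number of intergenic probes detected (5050 against 4293 to 4373). The living ventricular array was the lowest for TUG1, with 0.869 (A_30_P01032690, 1.09 against 1.46 to 1.52) and 0.834 (A_30_P01033104, 1.11, with the others up to 1.58).

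Between postmortem and living CMPs, 9 intergenic probes were at least 2-fold apart in opposite directions in the atrial and the ventricular pair. Between ventricular and atrial CMPs, 6 were opposite in the postmortem and the living pair. These differences were not tested.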

How the results depend on the processing

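No paired analysis was possible because the labels carry no replicate numbers; the chamber is a term of the model. A block for slide or scan was not run, since all arrays share 1 scan. The count of calls between postmortem and living CMPs (1) was 2 with normexp, 13 with no filter on dim probes and 0 without a variance trend, without the chamber term and in the CMP arrays alone, and leaving out an array gave 0 to 344. Between chambers (0) it was 2 with normexp and 8 with no filter, and 0 to 412 with an array left out. With the stricter filter the counts were 933, 748 and 575 for CMPs against fetal heart, CMPs against adult heart and adult against fetal heart, and with 1 probe per gene name 635, 700 and 527; fewer probes are tested there. Leaving out an array gave 1196 to 1421, 1651 to 1729 and 1042 to 1568. With the looser detection flag of the scanner program, 8332, 9668, 8282 and 8689 intergenic probes counted as detected in the CMPs (atrial before ventricular, postmortem before living), 8127 in adult heart and 9151 and 8919 in the fetal hearts, and both strands, 1 strand and neither strand were detected in 762, 252 and 53 intervals. The nearest named gene within 10 kb, which for some probes is the same RNA, shared the direction in 88.9%, 80.1% and 78.3% of pairs with both called. Of 153 named results, 21 no longer passed with normexp, whose offset of 50 shrinks differences of faint probes, 8 with quantile normalization, 8 without a trend, 6 without the chamber term, 6 with no filter and 3 with other centring. The only sign change was A_30_P01021611 in adult against fetal heart, -2.06 and 0.028 with normexp.

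The adult group is 1 array, leaving out a CMP array leaves 1 residual degree of freedom, and faint probes have bounds only.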
